A study of Mus musculus with 4 samples.

Results

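SNARE proteins and the factors that load, guide and recycle them were compared between Ly6G+ cells of *lal+/+* and *lal-/-* mouse bone marrow. The genes were taken by name from a list of 39, and a gene counted as measured where a probe set of the array names it and no other gene. By this rule 37 of the 39 genes were measured, of 19938 genes measured in all, and each of the 37 was read by 1 probe set. *Stx10* has no probe set in the tables used here. The probe set of *Vamp2* also names *Ubr3* and was not used. *Stxbp3* has a near-identical copy in the mouse genome, so its values are uncertain.

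The study asked which genes differ in myeloid-derived suppressive cells (MDSCs) when lysosomal acid lipase (LAL) is missing. LAL, encoded by *Lipa*, releases cholesterol and fatty acids from the neutral lipids that reach the lysosome. Total RNA of bone marrow cells was read on 2 arrays of wild type (*lal+/+*) and 2 arrays of LAL knock-out (*lal-/-*) mice with no treatment named, 5 months old and back-crossed onto FVB/N. The labels call the cells CD11b+ Gr-1+, whereas the methods describe magnetic selection with an antibody to Ly6G, a surface antigen of granulocytes. The enzyme was missing in the whole animal, so effects within these cells and effects of their surroundings cannot be told apart. The sources do not tie an array to a mouse, so a p-value covers no more than the array-to-array spread, and that spread may be technical.

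Membranes fuse when SNARE proteins of a vesicle and of its target wind their helices into a tight bundle. The helices fall into the classes Qa, Qb, Qc and R, where most syntaxins are Qa and the VAMPs are R, and proteins of the SNAP25 type carry a Qb and a Qc helix on the same chain. Sec1/Munc18 (SM) proteins hold syntaxins and guide assembly, Munc13 proteins prime vesicles, and the ATPase NSF with its SNAP adaptors takes used bundles apart. In neutrophils this machinery releases granules at the surface and at the phagosome, and each membrane of the cell, from the endoplasmic reticulum (ER) to the lysosome, has its own set of SNAREs.

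Levels are log2 values after quantile normalization, differences are log2 fold changes of *lal-/-* over *lal+/+*, and genes were called at an adjusted p under 0.05 from limma and a fold change of at least 2. As the level of silent genes served the 95th percentile of 1023 probe sets of olfactory receptors, which was 6.79 in *lal+/+* and 6.29 in *lal-/-* cells. *Lipa* read 9.50 and 9.05 in *lal+/+* cells against 7.37 and 7.49 in *lal-/-* cells (log2 fold change -1.85, adjusted p = 0.000417). *Ly6g*, the antigen of the selection, read 10.19 and 9.80 in *lal+/+* and 12.91 and 12.84 in *lal-/-* cells. Its transcript was well above silent genes in both genotypes, at unequal levels. Of 10 neutrophil markers 5 were higher and 1 was lower in *lal-/-* cells, and none lay at the level of silent genes. All 9 B cell markers measured were lower in *lal-/-* cells, where their mean level was 6.06 and 5.97 against 9.75 and 9.51 on the *lal+/+* arrays, and 4 of them (*Ms4a1*, *Ebf1*, *Cr2* and *Fcer2a*) fell to the level of silent genes. Of 11 monocyte and macrophage markers 8 were lower, with mean levels of 6.85 and 6.89 against 8.999 and 8.85, and *Spic*, *Mrc1*, *C1qb* and *C1qc* fell to the silent level. Of 10 T and NK cell markers 4 were lower and 1 was higher, of 10 eosinophil, basophil and mast cell markers 2 were higher and 1 was lower, and of 8 erythroid and megakaryocyte markers 1 was higher. Of 5 proliferation markers 4 were higher. Beside these counts, 7.56% of all genes were called higher and 3.24% lower. The part of these shifts in the SNARE results was not tested, and fewer cells of a type cannot be told apart from less RNA per cell.

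In *lal-/-* MDSCs 12 of the 37 SNARE and fusion genes were called higher and 0 were called lower. The 12 genes were *Vti1a*, *Ykt6*, *Stx2*, *Vamp7*, *Stxbp2*, *Bet1*, *Stx18*, *Unc13d*, *Gosr2*, *Stx17*, *Vamp3* and *Stx5a*, with fold changes from 4.66 for *Vti1a* down to 2.0001 for *Stx5a*. Among all genes measured 7.56% were called higher and 3.24% were called lower. In both genotypes 9216 of the 19938 genes lay in the silent range, against 1 of the 37. With a filter on low values 12 of 36 members were called higher, beside 13.5% of 10587 genes, and the medians were 0.58 and 0.14. By limma's adjusted p alone 18 SNARE and fusion genes were higher (19.8% of all genes) and 0 were lower (9.85% of all genes). At an unadjusted p under 0.05 in limma 23 of the 37 were higher (26.2% of all genes) and 0 were lower (14.4% of all genes). Both *lal-/-* arrays lay above both *lal+/+* arrays for 29 of the 37 genes (41.6% of all genes) and below them for 2, *Vamp1* and *Nsf* (24.1% of all genes). The groups overlapped for the other 6. The median difference of the 37 genes was 0.57 on the log2 scale and that of all genes was 0.08.

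**Figure D1:**
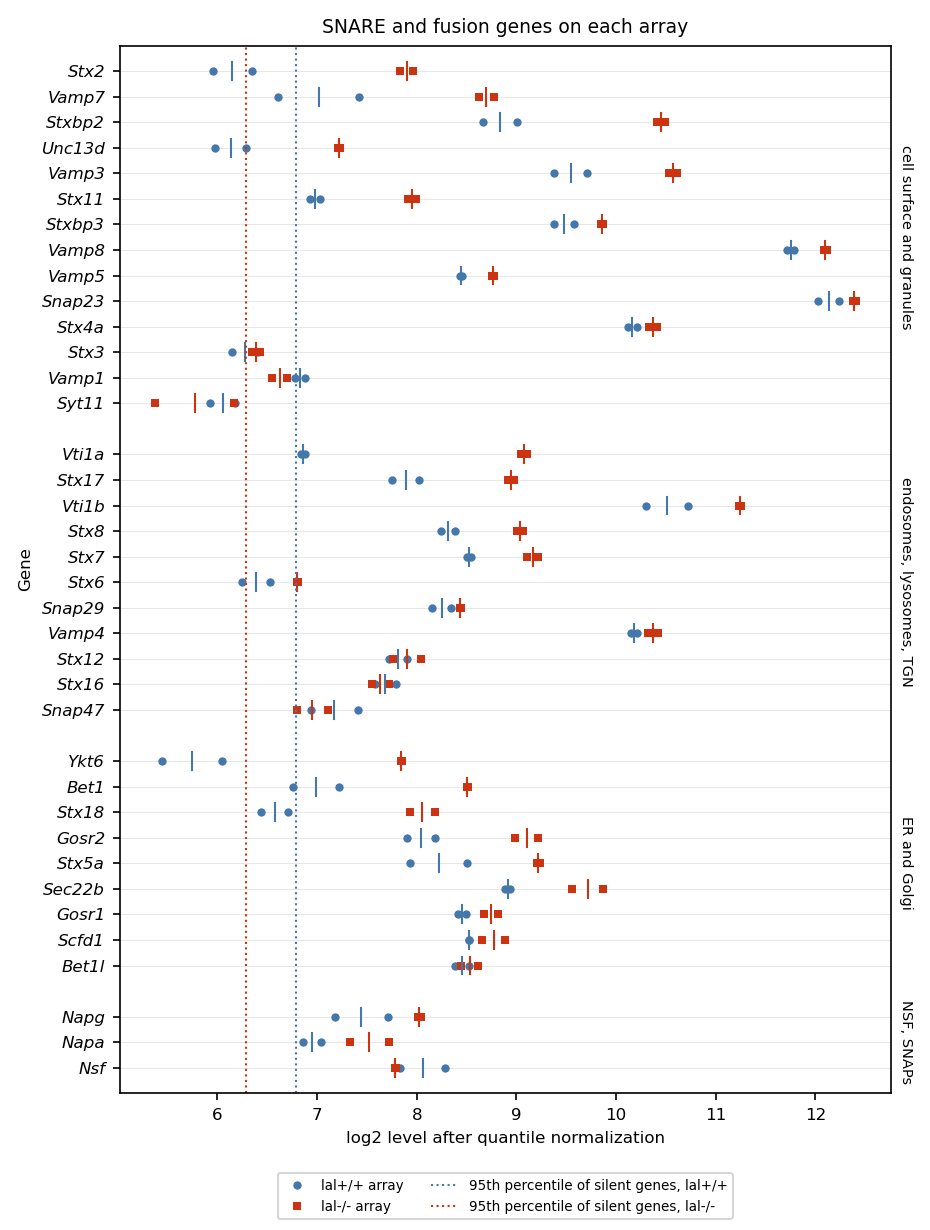
Log2 levels of the 37 measured SNARE and fusion genes after quantile normalization (horizontal axis), with genes grouped by where they act and sorted by the difference between genotypes. Circles are the 2 *lal+/+* arrays, squares the 2 *lal-/-* arrays, short vertical lines the group means and dotted lines the 95th percentile of silent genes in each genotype (6.79 and 6.29). The squares lie to the right of the circles without overlap for 29 genes and to the left for *Vamp1* and *Nsf*.

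The 2 arrays of a genotype differed by a median of 0.21 in *lal+/+* and 0.08 in *lal-/-* cells over the 37 genes. The widest gaps were 0.82 for *Vamp7* in *lal+/+* and 0.80 for *Syt11* in *lal-/-* cells. In *lal+/+* cells 7 of the genes, *Stx2*, *Stx3*, *Unc13d*, *Syt11*, *Stx6*, *Stx18* and *Ykt6*, had mean levels under the 95th percentile of silent genes, and *Syt11* was also under it in *lal-/-* cells. At such levels a difference can be understated. The standard errors of the differences ran from 0.12 to 0.26. An ordinary linear model without limma's shared variance called 0 of the 37 genes and 0 genes in all at the same thresholds, with an unadjusted p under 0.05 for 16 of the 37 and for 5691 of all genes.

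The genes with the largest differences among those called that have a promoter window in the RefSeq tables are *Vti1a*, *Ykt6* and *Stx2*. Each is shown by the bases before its outermost annotated start, to give the promoter sequence just upstream of the most changed transcripts. The build is GRCm38.p6, and the positions are chr19:55315807-55316029 on the plus strand for *Vti1a*, chr11:5955508-5955757 on the plus strand for *Ykt6* and chr5:129008601-129008822 on the minus strand for *Stx2*. Capitals mark matches, on either strand, to a GC box (GGGCGG), an ETS motif (GGAAGT) or an E-box (CACGTG), the last being the core of the element of lysosomal genes bound by TFEB. The ETS motif is longer than the GGAA core, which was not searched on its own and is not marked.
Vti1a promoter: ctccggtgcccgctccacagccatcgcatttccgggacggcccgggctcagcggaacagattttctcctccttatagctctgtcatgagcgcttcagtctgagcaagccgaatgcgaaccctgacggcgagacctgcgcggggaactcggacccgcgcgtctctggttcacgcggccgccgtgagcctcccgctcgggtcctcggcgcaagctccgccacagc
Ykt6 promoter: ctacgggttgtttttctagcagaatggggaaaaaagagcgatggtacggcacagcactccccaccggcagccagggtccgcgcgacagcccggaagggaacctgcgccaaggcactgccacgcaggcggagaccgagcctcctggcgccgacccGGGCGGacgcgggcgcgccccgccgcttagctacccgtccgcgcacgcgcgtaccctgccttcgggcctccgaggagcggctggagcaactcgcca
Stx2 promoter: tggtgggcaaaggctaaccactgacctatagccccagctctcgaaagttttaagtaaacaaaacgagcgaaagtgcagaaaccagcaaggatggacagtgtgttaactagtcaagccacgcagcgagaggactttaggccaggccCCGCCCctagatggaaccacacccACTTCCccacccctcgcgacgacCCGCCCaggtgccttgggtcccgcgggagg
The stretch of *Vti1a* held none of the 3 motifs as spelled here, that of *Ykt6* held 1 GC box, and that of *Stx2* held 2 GC boxes and 1 ETS motif. In the whole windows of 300 bases (250 before the start and 50 after it) the ETS motif was found for 5 of the 9 called genes that have a window, *Gosr2*, *Stx2*, *Stx5a*, *Vti1a* and *Ykt6*, and for 4 of the 24 other members with one. It was found in 27.9% of the 15563 measured genes with a window and in 23.8% of all 32851 windows. A gene was counted where any of its windows held the motif, so shares of genes and shares of windows are unlike measures. The GC box was found for 7 of the 9 and 17 of the 24 genes, against 53.0% of measured genes and 35.7% of all windows. The E-box was found for *Stxbp2* among the 9 called genes and for *Napa*, *Nsf*, *Stx6* and *Vamp4* among the 24 others. Its shares were 9.52% of measured genes and 7.15% of all windows. No matches of different motifs overlapped in these windows. A match to these letters is a description of the sequence and not a binding site.

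At the cell surface and on granules (median difference 0.36), 5 of 14 genes were higher in *lal-/-* cells, beside 7.56% of all genes. They were the syntaxin *Stx2*, the VAMPs *Vamp7* and *Vamp3*, the SM gene *Stxbp2* and the priming factor *Unc13d*. Each gene was counted at a single site. *Vamp7*, *Vamp3* and *Vamp8*, counted here, are also SNAREs of endosomes, so the counts by site depend on this placement. *Stx2*, a syntaxin of the plasma membrane, read 6.34 and 5.95 in *lal+/+* and 7.97 and 7.83 in *lal-/-* cells, a difference of 1.75 (standard error 0.16, adjusted p = 0.000405). The *lal+/+* arrays lay at the level of silent genes and the *lal-/-* arrays well above it.

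*Stxbp2* encodes Munc18-2, the partner of syntaxin 11, and mutations of either gene cause familial hemophagocytic lymphohistiocytosis in people. It read 9.01 and 8.66 in *lal+/+* and 10.42 and 10.49 in *lal-/-* cells, a 3.06-fold difference (log2 1.61, standard error 0.15, adjusted p = 0.000432). Its syntaxin, *Stx11*, read 7.03 and 6.92 in *lal+/+* and 7.91 and 7.99 in *lal-/-* cells. The groups were well apart, but at 1.97-fold (log2 0.98, standard error 0.12, adjusted p = 0.00137) *Stx11* fell just short of the fold threshold and was not called. Without *lal+/+* array 1 its difference was 1.06 and it was called. *Unc13d* encodes Munc13-4, which binds Rab27a and primes granules for release in leukocytes. It read 5.98 and 6.29 in *lal+/+*, within the silent range, and 7.24 and 7.21 in *lal-/-* cells, a difference of 1.09 (standard error 0.15, adjusted p = 0.00172). Without *lal+/+* array 1 the difference was 0.96, under the fold threshold.

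Among the VAMPs, *Vamp7*, a longin-domain R-SNARE of late endosomes and lysosomes, read 7.42 and 6.61 in *lal+/+* and 8.77 and 8.63 in *lal-/-* cells. The *lal+/+* arrays were far apart from each other, yet both were below both *lal-/-* arrays (difference 1.68, standard error 0.25, adjusted p = 0.00289). *Vamp3*, cellubrevin of recycling endosomes, read 9.71 and 9.38 against 10.61 and 10.53 (difference 1.03, standard error 0.15, adjusted p = 0.00246). Its call was lost without *lal+/+* array 2 (0.85) and without *lal-/-* array 1 (0.99). *Vamp8*, endobrevin of late endosomes and secretory granules, read 11.72 and 11.79 against 12.12 and 12.09. Its difference of 0.35 missed the adjusted p in the main limma fit (0.0708). *Vamp5*, known from muscle, had a difference of 0.32 (adjusted p = 0.09). *Vamp1*, synaptobrevin 1, read 6.88 and 6.77 against 6.55 and 6.70, near the silent level in both genotypes, with a difference of -0.20.

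Several Q-SNAREs of the surface and their partners did not pass. *Snap23*, the widely expressed relative of the neuronal SNAP25, read 12.24 and 12.03 in *lal+/+* and 12.41 and 12.38 in *lal-/-* cells, a difference of 0.26 (standard error 0.13, adjusted p = 0.194). *Stx4a*, a syntaxin of the plasma membrane, read 10.12 and 10.21 against 10.33 and 10.41, a difference of 0.20. The SM gene for its partner Munc18-3, *Stxbp3*, had a difference of 0.38 (adjusted p = 0.0706). In all 3 the *lal-/-* arrays lay above the *lal+/+* arrays, by less than could be called after quantile normalization. *Stx3*, a syntaxin of the plasma membrane and of granules, read 6.15 and 6.41 against 6.35 and 6.43, with overlapping groups near the silent level. *Syt11*, a synaptotagmin that does not bind calcium, read 6.18 and 5.92 against 6.17 and 5.37, also with overlap. Without *lal-/-* array 1 its difference was -0.67 (adjusted p = 0.0475), between levels in the silent range.

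On endosomes, lysosomes and the trans-Golgi network, 2 of 11 genes were higher in *lal-/-* cells (7.56% of all genes). The median difference of the 11 was 0.42, with *Vamp3*, *Vamp7* and *Vamp8* counted at the surface and granules. *Vti1a*, a Qb-SNARE of the trans-Golgi network, had the largest difference of the 37 genes. It read 6.84 and 6.88 in *lal+/+* and 9.11 and 9.05 in *lal-/-* cells, a 4.66-fold difference (log2 2.22, standard error 0.12, adjusted p = 7.69e-05). The arrays of each genotype lay close together, the *lal+/+* pair just above the silent level, and the groups were far apart. Its relative *Vti1b*, of late endosomes, read 10.73 and 10.30 against 11.24 and 11.26, a difference of 0.73 that passed the adjusted p (0.0154) and not the fold threshold. Both genes stand in a table that the study drew from these arrays, so their direction here is not independent evidence. The study listed *Vti1b* among genes changed by a fold of at least 2, which it did not reach here after quantile normalization.

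*Vti1b*, *Stx7* and *Stx8* form the Q-SNARE bundle of late endosomes, with *Vamp7* or *Vamp8* as the R-SNARE. *Stx7* read 8.55 and 8.51 against 9.22 and 9.11 (difference 0.64, adjusted p = 0.00802). *Stx8* read 8.24 and 8.39 against 9.01 and 9.06 (difference 0.72, adjusted p = 0.00537). All 3 Q-SNAREs of this bundle thus passed the adjusted p with groups apart, at folds of 1.56 to 1.66, and none was called. *Stx17*, the syntaxin of autophagosomes, read 8.02 and 7.75 against 8.91 and 8.98, and was called higher (difference 1.06, standard error 0.14, adjusted p = 0.00169). Its call was lost without *lal+/+* array 2 (0.95) and just lost without *lal-/-* array 2 (log2 0.997). *Snap29*, which completes the Q-SNARE bundle with syntaxin 17, read 8.35 and 8.15 against 8.43 and 8.44, a difference of 0.19 (adjusted p = 0.319).

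*Vti1a* also joins *Stx16*, *Stx6* and *Vamp4* in a bundle that returns membrane to the trans-Golgi network, and it was the one of these 4 genes that was called. *Stx6*, a Qc-SNARE, read 6.25 and 6.52 against 6.80 and 6.81, a difference of 0.42 (adjusted p = 0.0653) from a *lal+/+* level in the silent range. *Vamp4*, the R-SNARE, had a difference of 0.18 and *Stx16*, the Qa-SNARE, one of -0.05. *Stx12*, of recycling endosomes, had a difference of 0.09, and *Snap47* one of -0.22. The arrays of the genotypes overlapped for *Stx12*, *Stx16* and *Snap47*.

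**Figure D2:**
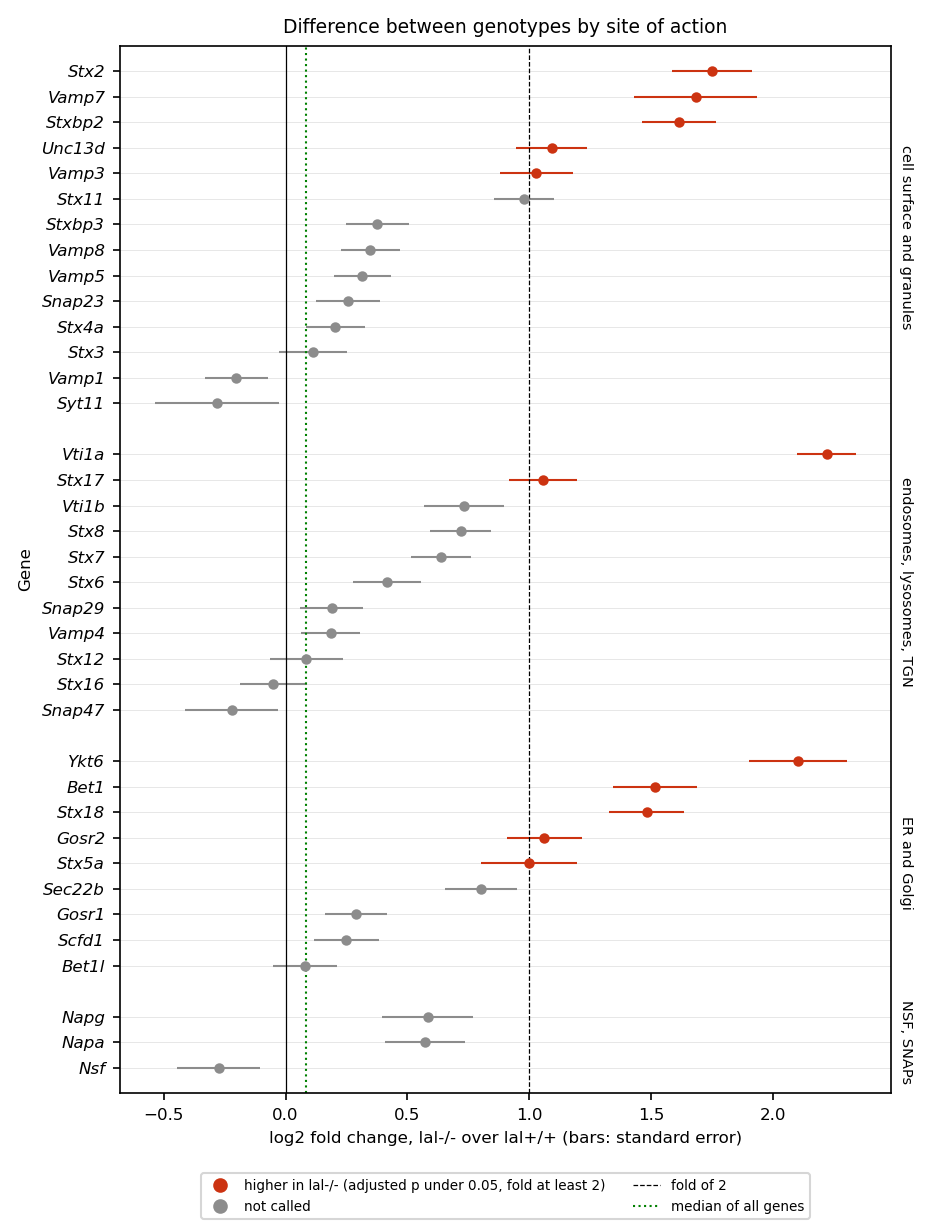
Log2 fold change of *lal-/-* over *lal+/+* (horizontal axis) for each of the 37 genes by where it acts, with the standard error of the limma fit as bars. Genes called higher are in red, the dashed line is a fold of 2 and the dotted line is the median of all genes (0.08). Called genes are 5 of 14 at the surface and on granules, 2 of 11 on endosomes, lysosomes and the trans-Golgi network, and 5 of 9 in the ER and Golgi. *Vamp7* and *Vamp3*, also SNAREs of endosomes, are counted with the surface and granules.

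In the ER and Golgi, 5 of 9 genes were higher in *lal-/-* cells (7.56% of all genes). All 9 differences were positive, with a median of 1.0001, and so were those of 11909 of all 19938 genes. *Ykt6*, an R-SNARE held in membranes by lipids in place of a transmembrane segment, read 6.04 and 5.44 in *lal+/+* and 7.85 and 7.84 in *lal-/-* cells. The *lal+/+* arrays lay in the silent range and the *lal-/-* arrays above it, a 4.30-fold difference (log2 2.10, standard error 0.20, adjusted p = 0.00046). *Stx18*, the syntaxin of the ER, read 6.71 and 6.44 against 8.18 and 7.93 (difference 1.48, standard error 0.15, adjusted p = 0.000632). It too lay in the silent range in *lal+/+* cells.

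*Stx5a*, *Gosr2* and *Bet1* encode the Q-SNAREs that act in transport from the ER to the Golgi, and all 3 were called higher. *Bet1* read 7.22 and 6.76 against 8.51 and 8.50 (difference 1.52, standard error 0.17, adjusted p = 0.000897). *Gosr2*, membrin, read 7.90 and 8.18 against 9.21 and 8.99 (difference 1.06, standard error 0.15, adjusted p = 0.0024). *Stx5a*, syntaxin 5, read 8.51 and 7.93 against 9.23 and 9.21 (difference 1.0001, standard error 0.20, adjusted p = 0.00871), at the fold threshold itself. In each of these genes the *lal-/-* arrays were above the *lal+/+* arrays. The call of *Gosr2* was lost without *lal+/+* array 1 (0.94) and without *lal-/-* array 1 (0.92). That of *Stx5a* was lost without *lal+/+* array 2 (0.74), without *lal-/-* array 1 (0.95) and without *lal-/-* array 2 (0.99).

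*Sec22b*, the R-SNARE that joins syntaxin 5, membrin and Bet1, read 8.94 and 8.89 against 9.87 and 9.56. The groups were apart, and the difference of 0.80 passed the adjusted p (0.00648) and not the fold threshold. *Scfd1* encodes Sly1, the SM partner of syntaxin 5, and had a difference of 0.25 (adjusted p = 0.209). In transport within the Golgi, *Stx5a* and *Ykt6* work with *Gosr1* and *Bet1l*. The first pair was called higher, whereas *Gosr1* (0.29, adjusted p = 0.133) and *Bet1l* (0.08, adjusted p = 0.694) did not pass, and the groups overlapped for *Bet1l*.

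None of the 3 genes that take SNARE bundles apart was called. *Nsf*, the ATPase, read 8.29 and 7.83 in *lal+/+* and 7.78 and 7.79 in *lal-/-* cells, a difference of -0.28 (standard error 0.17, adjusted p = 0.273). The *lal-/-* arrays lay just below the lower *lal+/+* array. Without *lal+/+* array 2 the difference was -0.53 and passed the adjusted p (0.0321), not the fold threshold. *Napa* encodes alpha-SNAP, the adaptor of NSF, and read 7.04 and 6.86 against 7.33 and 7.72 (difference 0.57, adjusted p = 0.0395), which passed the adjusted p and not the fold threshold. *Napg*, for gamma-SNAP, read 7.71 and 7.18 against 8.01 and 8.04 (difference 0.58, adjusted p = 0.056). Both adaptors were higher on both *lal-/-* arrays, whereas the ATPase was not.

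By class of helix, the called genes were 4 of 10 Qa, 2 of 4 Qb, 1 of 4 Qc and 3 of 8 R genes. Of the SNAP25 type (*Snap23*, *Snap29* and *Snap47*) 0 of 3 genes were called, where 7.56% of all genes were called higher. The SNAP25 type had a median difference of 0.19, and after quantile normalization none of its members passed limma's adjusted p or had an unadjusted p under 0.05. *Snap29* passed the adjusted p with the common median (0.69, adjusted p = 0.00724) and as deposited (0.51, adjusted p = 0.0288), and *Snap23* with an intensity trend and robust variances (adjusted p = 0.0158), all under the fold threshold.

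The scaling of the arrays moved the count. When the arrays were set to a common median, 18 of the 37 genes were higher (13.1% of all genes) and 0 were lower. With the values as deposited 17 were higher (10.1% of all genes) and 0 were lower. All 12 genes called after quantile normalization were called under both. The added genes were *Stx11*, *Stx7*, *Stx8*, *Vti1b* and *Sec22b* under both and *Stxbp3* with the common median. The late endosomal Q-SNAREs thus crossed the fold threshold under both scalings, at 1.31 for *Vti1b*, 1.26 for *Stx8* and 1.20 for *Stx7* with the common median and 1.13, 1.08 and 1.02 as deposited. By the adjusted p alone 29 of the 37 genes were higher with the common median (26.7% of all genes) and 27 as deposited (21.4% of all genes). The main limma fit after quantile normalization gave 18 (19.8% of all genes). With that normalization kept, *Vamp8* passed limma's adjusted p under the filter on low values (0.0439) and the intensity trend (0.000708). So did *Stxbp3* (0.0471 and 0.0201) and *Napg* (0.0459 and 0.0445). *Stx4a* moved from 0.20 to 0.86 with the common median (adjusted p = 0.000932) and 0.68 as deposited (adjusted p = 0.00431), and *Stxbp3* from 0.38 to 1.02 and 0.84 (adjusted p = 0.00134 as deposited). *Vamp8*, *Vamp5*, *Vamp4*, *Snap29*, *Gosr1*, *Scfd1* and *Napg* also passed the adjusted p under both scalings, at 0.63 to 0.92 with the common median, without reaching the fold threshold. *Stx6* (0.47) and *Bet1l* (0.60) passed it with the common median and not as deposited. *Stx11* was at 1.25 and 1.07, and its partner *Stxbp2* at 2.22 and 2.04. The median of the 37 genes was 0.92 with the common median and 0.74 as deposited, where the median of all genes was 0.12 and -0.05.

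**Figure D3:**
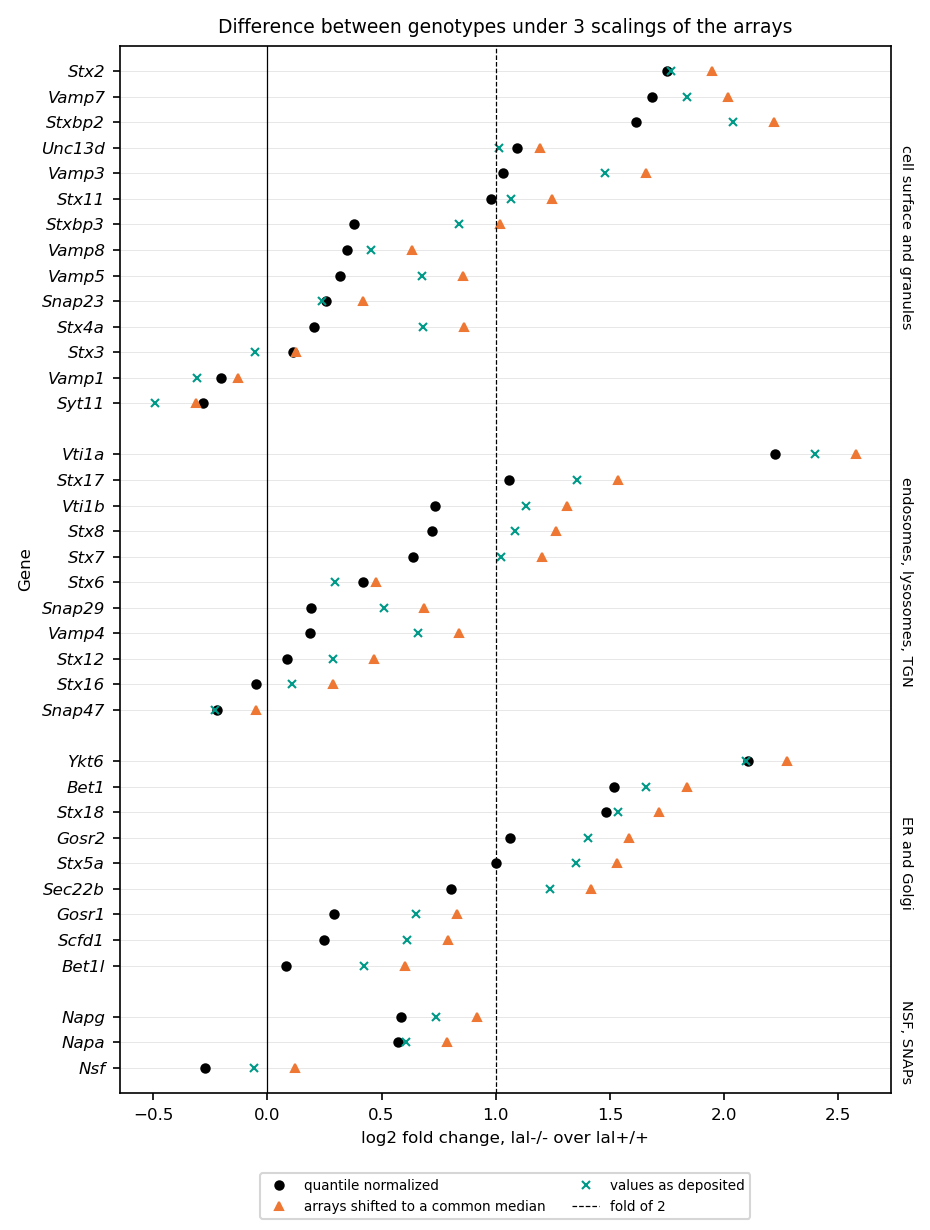
Log2 fold change of *lal-/-* over *lal+/+* (horizontal axis) for the 37 genes under 3 scalings: quantile normalization (circles), a common median (triangles) and the values as deposited (crosses), with a dashed line at a fold of 2. The common median gave the largest values for most genes, and 18, 17 and 12 genes were called with the common median, as deposited and after quantile normalization.

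Related genes were counted in lists of the same pathway, which were chosen with earlier results of these data known. Of 17 other SNARE, SM and NSF adaptor genes (median difference 0.13) 2 were higher and 0 were lower by limma, beside 7.56% and 3.24% of all genes. The 2 were *Stxbp5*, tomosyn, which binds syntaxins in place of a VAMP (1.73), and *Vps45*, the SM gene of early endosomes (1.52). *Vps45* stands in a table that the study drew from these arrays, so its direction is not independent evidence. At the adjusted p alone 6 of the 17 were higher and 2 were lower, beside 19.8% and 9.85% of all genes. Calcium sensors and priming factors, most of them known from neurons and endocrine cells, showed 0 higher and 1 lower of 39 by limma. The lower gene was *Unc13a*, for the neuronal Munc13-1 (-1.41). It read 9.58 and 9.67 in *lal+/+* and 8.18 and 8.24 in *lal-/-* cells, well above silent genes. By contrast, 24 of the 39 lay in the silent range in both genotypes. At the adjusted p alone 2 of the 39 were higher and 2 lower, beside the same 19.8% and 9.85% of all genes.

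Tethering complexes hold vesicles at their target before SNAREs engage. Of 20 tether genes (median 0.51) 4 were higher and 0 lower, beside 7.56% and 3.24% of all genes. All 4 were subunits of the exocyst, which tethers vesicles at the plasma membrane, with *Exoc1* at 1.66, *Exoc3* at 1.44 and *Exoc6* at 1.20. The study listed all 4 from these same arrays, so their direction is not independent evidence. At the adjusted p alone 10 tether genes were higher and 1 was lower (19.8% and 9.85% of all genes). Of 9 Rab GTPases of granule release and endosomes 3 were higher and 0 were lower (7.56% and 3.24% of all genes). All 9 had a positive difference (median 0.78), as did 11909 of all 19938 genes. *Rab3d* (2.83), *Rab37* (2.10) and *Rab27a* (1.26) are Rabs of secretory granules. All 3 stand in a table that the study drew from these arrays, so their direction is not independent evidence either. *Rab27a*, which Munc13-4 binds, read 9.84 and 9.52 in *lal+/+* and 10.98 and 10.91 in *lal-/-* cells. Of these 2 pairs of partners, *Rab27a* and *Unc13d* were both called higher, the latter from the silent range in *lal+/+* cells. *Stxbp2* was called higher, and its partner *Stx11* was just under the fold threshold.

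Genes for the contents and membrane proteins of granules were also measured. Of 8 primary granule genes 5 were higher and 1 was lower (7.56% and 3.24% of all genes). *Ctsg* (3.78), *Mpo* (3.75) and *Prtn3* (2.21) were the highest, and the protease-activating *Ctsc* was lower (-1.11). Of 16 secondary and tertiary granule genes 14 were higher and 0 lower, led by *Cd177* (2.86), *Cyba* (2.72) and *Mmp25* (2.65), with a median of 1.33. *Cyba* too was listed by the study from these arrays. Most granule genes and proliferation markers thus differed between the genotypes in the direction of the called SNARE genes, with *Ctsc* the other way. Their part in the differences of the SNARE genes was not tested.

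**Figure D4:**
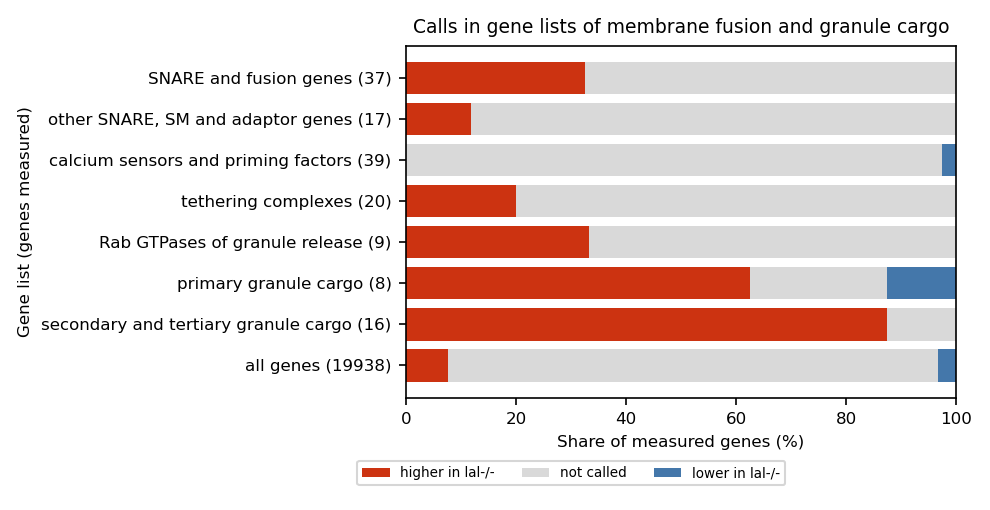
Share of measured genes called higher, not called or called lower in *lal-/-* cells (horizontal axis, percent) for SNARE and fusion genes, related lists and all genes, with the number measured in parentheses. Of the SNARE and fusion genes 12 of 37 were higher and 0 lower, beside 7.56% and 3.24% of all 19938 genes, and of the secondary and tertiary granule genes 14 of 16 were higher.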

How the data were processed

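Ly6G+ bone marrow cells of *lal+/+* (2 arrays) and *lal-/-* mice (2 arrays) gave the RNA for Affymetrix Mouse Gene 1.0 ST arrays. With RMA, run in Partek Genomics Suite, the authors turned the scans into log2 values, which were deposited. The submitters' processing notes name GCOS 1.1. The labels name NuGEN labelling reagents and the methods an Affymetrix kit. Of 35557 probe sets in the table, 21789 could be given a single gene, 1621 carried several genes, and 12147 are absent from the gene table used here. Current symbols were found for 21698 of the 21789 and 91 kept the symbol as written. All 4 per-sample columns were used.

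The medians of the deposited columns were 6.30, 6.36, 6.15 and 6.15, which led to quantile normalization of all 4. Genotype was the term of a linear model fitted per probe set (lmFit and eBayes of limma 3.58.1, R 4.3.3), with Benjamini-Hochberg adjustment over the 21789 single-gene probe sets. Where a gene has several probe sets, the brightest by mean stands for it. Calls needed a fold of at least 2 and an adjusted p under 0.05, as in the methods, whose tissue term cannot be fitted to 1 tissue. The number of arrays limits the precision, and with 2 against 2 no exact two-sided permutation test gives a p below 0.333. The procedure was tested on simulated data.

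The members, the gene lists and the tests were chosen with earlier results of these data known. Every measured member was named, with up to 3 called genes of each related list in each direction, *Lipa* and *Ly6g*. Alternatives were a common median, the values as deposited, a filter on low values, variances with an intensity trend, an ordinary linear model, a replicate block, no fold threshold, averaged probe sets per gene and each array left out in turn. A crossed block was added after seeing the data. RefSeq promoter windows (GRCm38.p6) were found for 33 of the 37 members. Motifs were searched on both strands.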

Additional observations from a re-analysis of the deposited data

How the results depend on the processing

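The 12 genes called higher were also called with a common median, the values as deposited, a filter on low values, an intensity trend and the mean of the probe sets. The median of the 37 differences was 0.92 with the common median and 0.74 as deposited. An ordinary linear model called 0 members, although 16 had an unadjusted p under 0.05. With a replicate block 12 members were higher. Arrays of the same number did not deviate together (r = -0.175 across probe sets), so the numbers were not taken as pairs, and a crossed block, chosen after seeing the data, also gave 12. Leaving out each array in turn gave a median of 0.40 to 0.66. In some of these fits the difference fell under the fold threshold for *Gosr2* (lowest 0.92), *Unc13d* (0.96), *Vamp3* (0.85), *Stx17* (0.95) and *Stx5a* (0.74). The other called genes stayed over it, and *Stx11* rose over it without *lal+/+* array 1 (1.06). Directions turned for small differences that were not called: *Nsf* (0.12) and *Stx16* (0.29) with the common median, and *Stx16* (0.11) and *Stx3* (-0.054) as deposited. With each array left out in turn *Stx3* ranged from -0.017 to 0.25, *Snap47* from -0.47 to 0.012, *Stx12* from -0.054 to 0.22, *Stx16* from -0.16 to 0.054, *Bet1l* from -0.0033 to 0.16 and *Syt11* from -0.67 to 0.12. The cause was not tested. Over the 12 alternatives computed per gene (all but the fold threshold, and without *Syt11* under the filter) 397 values kept their direction and side of the threshold, 22 lost a call, 12 gained one and 12 changed sign. A mean signal under the level of silent genes limits 7 members in *lal+/+* cells. Array 2 of *lal+/+* also lay under that level for *Vamp7* (6.61), *Bet1* (6.76) and *Vamp1* (6.77).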
